A study of Mus musculus with 8 samples.

Results

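The nuclei of adult mouse hearts were examined for 10 genes of the Notch pathway. They are the 4 receptors Notch1, Notch2, Notch3 and Notch4, the 3 ligands Dll4, Jag1 and Jag2, and the 3 Hey genes Hey1, Hey2 and Heyl. They were chosen by their symbols, and all 10 were among the 32285 genes listed in the files. The measurement was single-nucleus RNA sequencing in droplets, in which each transcript carries a unique molecular identifier (UMI), so that values are counts of molecules per gene and nucleus. The labels give hearts of female and male mice of 2 genotypes, "WT- non Tg" (nTg) and "Tg-ccna2" (Tg). The Tg animals carry a transgene from which CCNA2, the cell-cycle regulator cyclin A2, is made constitutively. The exact age, the strain and the promoter of the transgene are not given in the sources used here, and nothing says which libraries came from separate animals.

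Of the 8 libraries, 5 had values of their own and were used. They are 1 library of an nTg female (nTg female 1), 2 of Tg females (numbers 1 and 2) and 2 of Tg males (numbers 1 and 2), and values by library are given in that order throughout. The values of Tg female 2 and of both Tg male libraries were also deposited under an nTg label of the same sex, so that the Tg label of 3 of the 4 Tg libraries rests on the match of their column count with their own barcode list. There is thus 1 nTg library, which is described without a test, and the only tested contrast is that of 2 Tg female against 2 Tg male libraries. Its p-values measure the spread between these libraries, which may be technical. Total depth was 25045167 to 38593706 UMIs, and 5750 to 8943 nuclei per library were kept, with a median of 2116 to 3049.5 UMIs. Between 2 libraries at most 0.326% of barcodes were shared. Ccna2 in cardiomyocyte-like nuclei was at 444, 0.521, 818, 232 and 144 counts per 1000000 UMIs (CPM), so that nTg female 1 and Tg female 1 went against their genotype labels, and libraries are therefore named by label only. Tg female 2 also stood apart: it had the lowest depth, and its own fibroblast markers summed to 11614 CPM in fibroblast-like nuclei against 16897 to 17744 CPM in the other libraries.

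Notch receptors sit in the membrane and are activated by Delta-like or Jagged ligands on a neighbouring cell. Cleavage then frees the intracellular domain, which enters the nucleus, joins the DNA-binding protein RBPJ and switches on target genes, among them the Hey transcriptional repressors. In vessels Dll4 and Notch1 are known for arterial fate and for restraining sprouting, Jag1 and Notch3 for the contact between endothelium and mural cells, and Hey2 also for the heart's ventricles and valves.

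Nuclei were grouped by clustering from which the 10 genes and 46 other pathway genes had been left out, and clusters were named from marker lists that hold none of the 10. This gave 10 classes with at least 50 nuclei in each library. Arterial-like endothelium (1461 nuclei) had 9 of 9 arterial markers raised, and capillary-like endothelium (3915 nuclei) 8 of 8 capillary markers. A further endothelial cluster of 1652 nuclei had raised markers of veins (4 of 7) and of capillaries (8 of 8). Raised in these counts means against all other nuclei. Against the arterial-like and capillary-like nuclei, this cluster had a mean log2 fold of 1.60 over the venous markers. Over the capillary markers it was -0.248, and over the arterial markers -3.00. The cluster is called Lhx6-high endothelium after a leading gene. The others were endocardial-like, lymphatic-like, pericyte-like, smooth muscle-like, fibroblast-like, cardiomyocyte-like and macrophage-like. Because classes were built from these same nuclei, levels between classes are a description and carry no p-value. Levels of different genes are not compared, since they were not scaled by length.

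**Figure D1:**
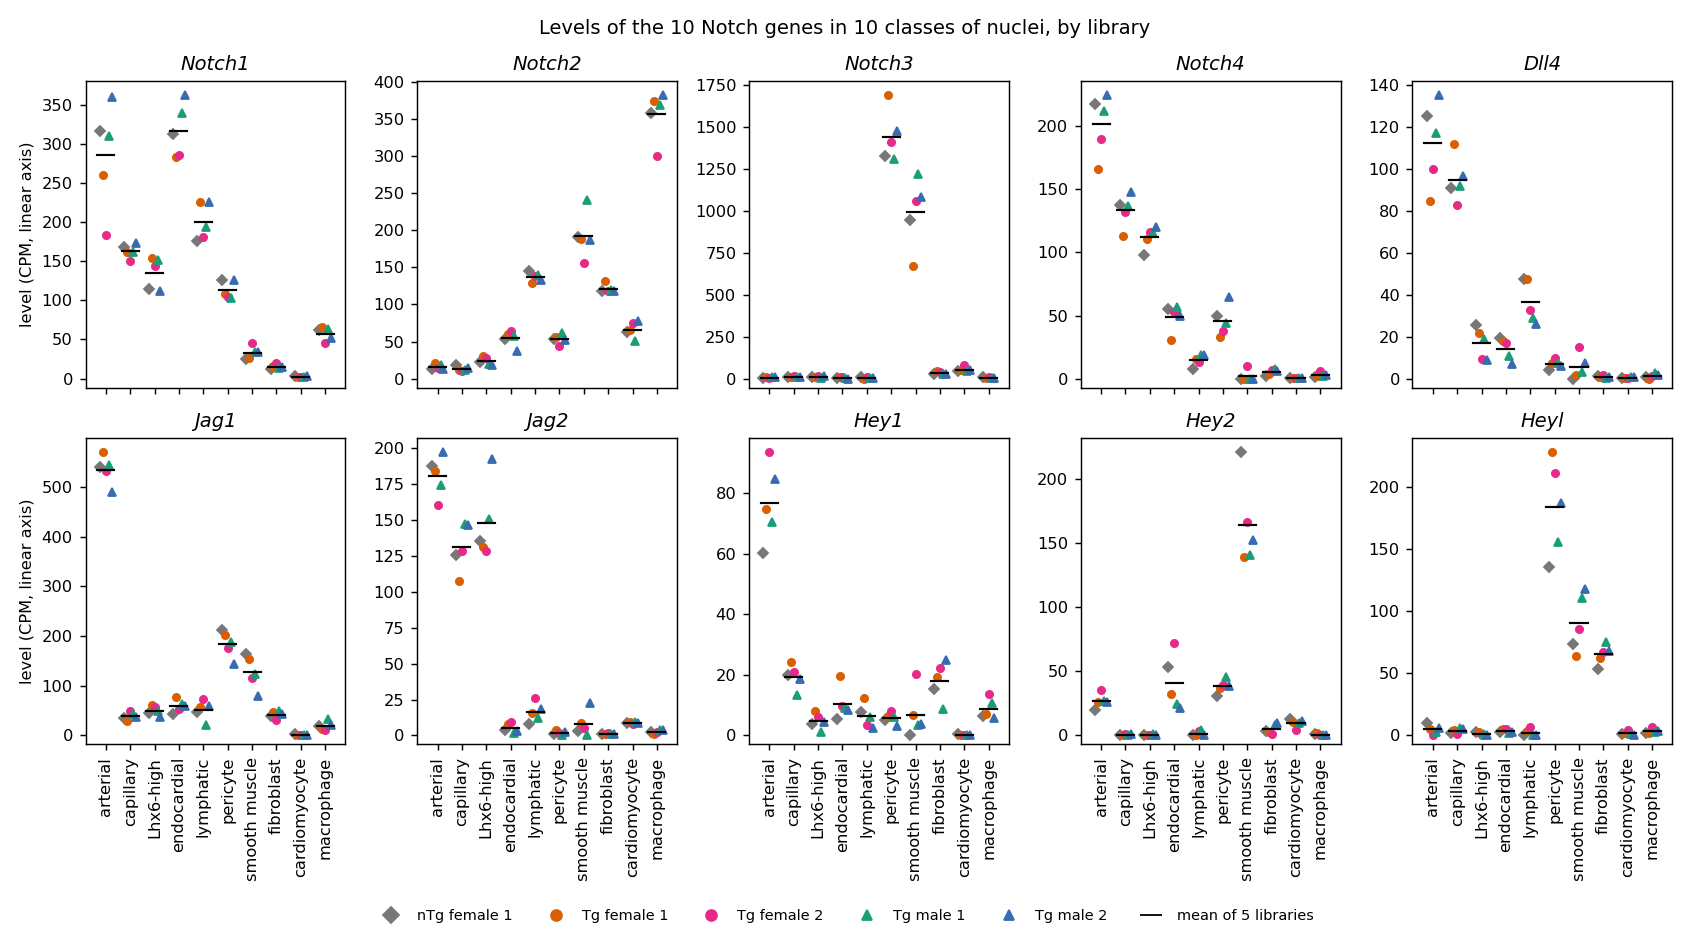
Level of each of the 10 genes (CPM, linear axis from 0, a separate scale for each gene) in the 10 classes of nuclei. Each point is 1 of the 5 libraries and each short line their mean. Notch3 and Heyl are highest in pericyte-like nuclei, Jag1 and Hey1 in arterial-like endothelium, Notch2 in macrophage-like nuclei and Hey2 in smooth muscle-like nuclei.

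Notch1 (ENSMUSG00000026923; GRCm38 chromosome 2, 26457903 to 26516663, minus strand), the receptor of endothelium and endocardium, was highest in endocardial-like nuclei at 313, 282.8, 286, 338.9 and 362.2 CPM. Arterial-like endothelium followed at 315.8, 260.5, 183.2, 310 and 359.8 CPM. The libraries of these classes overlapped, so their order is not set. Lymphatic-like nuclei (200 ± 23.7 CPM, SD over 5 libraries) lay above capillary-like endothelium (163 ± 8.63 CPM) in every library. Pericyte-like nuclei also carried Notch1, at 102.9 to 126.6 CPM. The 10 pan-endothelial markers together came to 126 to 157 CPM in those nuclei, against 10093 to 11943 CPM in capillary-like endothelium. The part of endothelial RNA in the Notch1 level of pericyte-like nuclei was not tested. Cardiomyocyte-like nuclei were lowest at 1.562 to 2.812 CPM. The genes 0610009E02Rik and Gm13568 overlap Notch1 on the other strand.

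Notch2 (ENSMUSG00000027878; chromosome 3, 98013527 to 98150361, plus strand) had another order of classes. It was at 358.8, 373.9, 300.5, 369 and 382.7 CPM in macrophage-like nuclei, with no overlap with another of the 10 classes. Smooth muscle-like nuclei came next at 190.5, 188.4, 156.4, 241.5 and 186.6 CPM. Lymphatic-like (137 ± 6.16 CPM) and fibroblast-like nuclei (121 ± 6.03 CPM) overlapped, and blood endothelium was lowest, with 13.3 ± 3.08 CPM in the capillary-like class. In 2 small immune classes the pooled level was also high, at 492 CPM in 132 myeloid-like nuclei with MHC class II or Ccr2 markers and 354 CPM in 80 B lymphocyte-like nuclei.

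Notch3 (ENSMUSG00000038146; chromosome 17, 32120820 to 32166852, minus strand), the receptor of mural cells, was at 1328, 1692, 1414, 1310 and 1477 CPM in pericyte-like nuclei. Smooth muscle-like nuclei had 946.4, 669.6, 1060, 1221 and 1082 CPM. No library of the second class reached the lowest of the first, and none of the other classes had a mean above 54.0 CPM. With each nucleus thinned to 1000 UMIs, 70.8% of pericyte-like and 53.7% of smooth muscle-like nuclei had a Notch3 UMI (88.9% and 78.7% before thinning; 61 and 10 shallower nuclei were left out). In endocardial-like nuclei, which should lack it, the share was 0.375% (1.32% before thinning, with 25 left out). Median depths were 2184, 2922.5 and 2667 UMIs in these classes. In arterial-like, capillary-like, Lhx6-high and lymphatic-like nuclei the thinned share was 0.645%, 1.00%, 1.01% and 0.385%. Before thinning it was 1.23%, 2.02%, 1.76% and 1.14%, at median depths of 1949, 1926, 1910.5 and 2417 UMIs, with 65, 217, 63 and 9 left out. Cardiomyocyte-like nuclei had 44.19 to 78.5 CPM of Notch3, the highest in Tg female 2, and the 9 pericyte markers summed to 208 to 324 CPM there. Their part in that level was not tested. The gene Gm17276 overlaps Notch3 on the other strand.

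Notch4 (ENSMUSG00000015468; chromosome 17, 34564268 to 34588503, plus strand), an endothelial receptor, was at 217.2, 166.4, 189.5, 212.2 and 224.5 CPM in arterial-like endothelium. All 5 values lay above the highest of capillary-like endothelium (113.1 to 148.1 CPM), which overlapped with Lhx6-high endothelium (98.06 to 119.8 CPM). Endocardial-like (48.8 ± 10.7 CPM) and pericyte-like nuclei (45.8 ± 12.2 CPM) shared a lower level, and lymphatic-like nuclei had 14.8 ± 4.45 CPM. In smooth muscle-like nuclei only 2 Notch4 UMIs were counted in all, which gives a pooled 1.19 CPM (exact 95% Poisson interval 0.144 to 4.30, counting error only).

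Among the ligands, Dll4 (ENSMUSG00000027314; chromosome 2, 119325784 to 119335962, plus strand) was at 125.3, 84.55, 99.94, 117.4 and 135.3 CPM in arterial-like endothelium. Capillary-like endothelium had 91.03, 112, 82.84, 91.94 and 96.95 CPM, and the 2 classes overlapped. Lymphatic-like nuclei followed at 36.6 ± 10.2 CPM. Lhx6-high (16.9 ± 7.42 CPM) and endocardial-like nuclei (14.4 ± 5.15 CPM) were lower and overlapped. In the other 5 of the 10 classes no mean exceeded 7.02 CPM, and 130 T or NK lymphocyte-like nuclei, a small class, had 37.1 ± 24.2 CPM from 13 UMIs. Gm14207, which overlaps Dll4 on the opposite strand, had a mean of 16.3 CPM in arterial-like endothelium.

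Jag1 (ENSMUSG00000027276; chromosome 2, 137081456 to 137116644, minus strand) was highest in arterial-like endothelium, at 539.7, 570, 530.9, 543.2 and 489.3 CPM. The second class in order, pericyte-like nuclei, reached 144.2 to 213 CPM and overlapped with smooth muscle-like nuclei (79.98 to 162.9 CPM). Capillary-like endothelium had 38.8 ± 7.70 CPM. In thinned nuclei, a Jag1 UMI was found in 38.0% of arterial-like and 3.33% of capillary-like nuclei (55.3% and 7.08% before thinning), at median depths of 1949 and 1926 UMIs, with 65 and 217 shallower nuclei left out. Jag2 (ENSMUSG00000002799; chromosome 12, 112907819 to 112929776, minus strand) was instead shared by the 3 blood endothelial classes. It was at 160.3 to 197.2 CPM in the arterial-like, 128.1 to 192.5 CPM in the Lhx6-high and 107.6 to 147 CPM in the capillary-like class. Lymphatic-like and endocardial-like nuclei had 16.2 ± 6.89 and 5.31 ± 3.33 CPM, apart from blood endothelium in every library.

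Hey1 (ENSMUSG00000040289; chromosome 3, 8663359 to 8667256, minus strand) was at 60.15, 75.01, 93.7, 70.72 and 84.91 CPM in arterial-like endothelium. No library of another of the 10 classes exceeded 24.9 CPM (in the small T or NK lymphocyte-like class, with 8 Hey1 UMIs in all, 1 library reached 42.9 CPM). Capillary-like endothelium (19.5 ± 4.01 CPM) and fibroblast-like nuclei (18.1 ± 6.26 CPM) overlapped. Heyl (ENSMUSG00000032744; chromosome 4, 123233556 to 123249875, plus strand) was at 135.1, 227.7, 210.9, 155.5 and 186.7 CPM in pericyte-like nuclei, 63.93 to 118.1 CPM in smooth muscle-like nuclei and 53.58 to 75.37 CPM in fibroblast-like nuclei. In the 5 endothelial classes its means were at most 4.85 CPM.

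Hey2 (ENSMUSG00000019789; chromosome 10, 30832359 to 30842801, minus strand) differed from both. It was at 221.2, 139.6, 166.5, 140.9 and 152.3 CPM in smooth muscle-like nuclei, with no overlap with any other class. Endocardial-like nuclei had 53.54, 32.02, 72.1, 24.77 and 21.31 CPM, a wide spread led by Tg female 2. They overlapped with pericyte-like nuclei (38.3 ± 5.24 CPM) and arterial-like endothelium (26.9 ± 5.50 CPM). In capillary-like endothelium 4 Hey2 UMIs were counted in all, a pooled 0.477 CPM with an exact 95% Poisson interval of 0.130 to 1.22. The promoter of Hey2 is shown because it was the only one of the members' promoters at hand that held the core letters bound by RBPJ, TGGGAA, on either strand. The bases lie upstream of the start in both RefSeq and GENCODE (GRCm38.p6, chr10:30842802-30843033, minus strand, sequence from RefSeq), written 5′ to 3′ on the gene's strand, with the match in capitals as the reverse complement TTCCCA.
Hey2 promoter: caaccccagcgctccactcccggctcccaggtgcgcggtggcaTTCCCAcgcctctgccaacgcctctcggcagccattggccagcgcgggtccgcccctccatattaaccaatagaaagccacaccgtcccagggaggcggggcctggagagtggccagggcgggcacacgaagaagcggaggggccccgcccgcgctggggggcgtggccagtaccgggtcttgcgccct
Of 32851 promoters, taken as 250 bases upstream of the start, 21.6% held TGGGAA on either strand. The longer form CGTGGGAA, which the Hey2 match also fits and which contains the shorter one, was held by 0.636%. Of the 8 members with a promoter in the table (all but Hey1 and Heyl), 1 held either form in the same 250 bases. For Notch1 and Jag2 those bases lie wholly inside the gene as GENCODE draws it, so 0 of them are upstream of both starts. A match is a description of letters and not of binding.

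Across the 10 classes, the levels of Notch3 and Heyl were correlated at r = 0.85 and those of Notch4 and Dll4 at r = 0.85 (Pearson's r over 10 class means of log2(CPM + 1), no test). These were the highest values among all pairs of members, and the lowest was that of Notch2 and Notch4 (r = -0.83). The classes share libraries and depth. Among 13971 other genes, those most like Notch3 were Cspg4, Gm38251 and Mark1 (r = 0.99, 0.99 and 0.98), and those most like Heyl were Cacng7, A630012P03Rik and Tbx18 (r = 0.99, 0.98 and 0.98). For Notch4 they included Tmem184b and Gm13713 (r = 0.98 and 0.97), and for Dll4 Gm3364, Gm14966 and its overlapping neighbour Gm14207 (r = 0.97, 0.96 and 0.95). Jag1 was most like Sf1, Stk24 and Sept11 (r = 0.95, 0.94 and 0.92), and Jag2 most like Car7, Tbc1d2 and Aqp7 (r = 0.97, 0.97 and 0.96). Notch1 was most like Fam3a, Ggta1 and H3f3b (r = 0.95, 0.94 and 0.94), and Notch2 most like C2cd5, Pi4k2a and Rnf150 (r = 0.92, 0.91 and 0.90). Hey1 was most like Clns1a, Gars and Arl15 (r = 0.94, 0.92 and 0.92). Hey2 had the least close neighbours, Sort1, Kank1 and Cdc73 (r = 0.89, 0.89 and 0.87).

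Next, endothelial classes were set against each other. A gene counted as apart where the means differed by at least 2-fold, all 5 libraries went the same way and the higher class had at least 10 CPM. Between arterial-like and capillary-like endothelium, 3 of the 9 members that reached 10 CPM were higher in the arterial-like class and 0 were lower. By the same rule 6.06% of all 10264 genes were higher and 6.79% lower. The 3 were a ligand and 2 Hey genes: Jag1 (535 ± 29.2 against 38.8 ± 7.70 CPM, log2 ratio 3.79), Hey1 (76.9 ± 12.9 against 19.5 ± 4.01 CPM, log2 ratio 1.98) and Hey2 (26.9 ± 5.50 against 0.508 ± 0.528 CPM, log2 ratio 5.72). Notch1, Notch4 and Jag2 were higher in 5 of 5 libraries but by less than 2-fold (log2 ratios 0.81, 0.60 and 0.46). Dll4 was higher in 4 of 5 (log2 ratio 0.24), and Notch3 lower in 5 of 5 (log2 ratio -0.70, at 6.53 and 10.6 CPM). The library ranges of the classes did not overlap for 6 of the 9, against 17.9% of all genes. The median log2 ratio of the 9 was 0.60, against -0.06 over all genes.

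Of the 46 other pathway genes, 34 reached 10 CPM in this comparison, 1 was higher and 2 were lower. The higher one was Dll1, a further Delta-like ligand (46.0 ± 16.7 against 18.9 ± 5.17 CPM). The lower ones were Neurl1b, a ubiquitin ligase that acts on ligands (5.94 ± 5.14 against 36.0 ± 5.31 CPM), and Maml3, a co-activator of the nuclear complex (101 ± 15.7 against 229 ± 39.6 CPM). The next at either end were Mib2 (log2 ratio 0.43), Furin (0.40) and Psenen (-0.54), which did not meet the 2-fold rule.

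Endocardial-like nuclei had 2 members higher and 3 lower than capillary-like endothelium, of 9 at 10 CPM or more. Of all genes 11.6% were higher and 9.51% lower. Notch2 (54.5 ± 10.6 against 13.3 ± 3.08 CPM, log2 ratio 2.03) and Hey2 (40.7 ± 21.5 against 0.508 ± 0.528 CPM) were higher. Jag2 (log2 ratio -4.62), Dll4 (-2.72) and Notch4 (-1.45) were lower. Notch1 itself was higher in 5 of 5 libraries by less than 2-fold (log2 ratio 0.96). Library ranges did not overlap for 6 of the 9, against 28.7% of all genes, and the median log2 ratio of the 9 was -0.83, against -0.02 over all genes. Among 36 other pathway genes, Aph1b (log2 ratio 1.91) and Psen2 (1.07), components of the gamma-secretase that cleaves Notch, were higher. Nrarp, a target that limits the pathway (-2.98), Mfng, a glycosyltransferase of the receptors (-2.82), and Neurl1b (-2.78) were lower.

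Lymphatic-like nuclei had 1 member higher and 4 lower than capillary-like endothelium, of 8 considered, against 11.2% and 9.92% of all genes. The higher one was Notch2 (137 ± 6.16 against 13.3 ± 3.08 CPM, log2 ratio 3.36). The lower ones were Notch4 (log2 ratio -3.17), Jag2 (-3.02), Hey1 (-1.59) and Dll4 (-1.37). Where a coarser clustering (resolution 0.5) joined the Lhx6-high nuclei to the capillary-like class, Dll4 (-0.92) and Hey1 (-0.78) no longer met the 2-fold rule. Library ranges did not overlap for 6 of the 8, against 26.1% of all genes, and the median log2 ratio of the 8 was -1.17, against 0.02 over all genes. Of 37 other pathway genes 5 were higher and 5 lower. Dtx1, a regulator of Notch endocytosis, was at 144 ± 10.4 CPM in lymphatic-like and 0.0983 ± 0.220 CPM in capillary-like nuclei. Aph1c (65.3 ± 26.0 against 1.32 ± 1.10 CPM) and Aph1b (107 ± 29.1 against 5.07 ± 1.52 CPM) were the next highest. They are close copies of each other, and how the counting treated reads that fit both is not given in the sources used here. Mfng (1.43 ± 1.42 against 62.0 ± 2.66 CPM), Nrarp (log2 ratio -2.70) and Neurl1b (-1.96) were the lowest.

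Within the vessel wall, smooth muscle-like nuclei had 2 members higher and 3 lower than pericyte-like nuclei, of 7 considered. Of all genes 9.46% were higher and 13.7% lower. Hey2 (164 ± 33.7 against 38.3 ± 5.24 CPM, log2 ratio 2.10) and Notch2 (193 ± 30.6 against 53.5 ± 6.45 CPM, log2 ratio 1.85) were higher in smooth muscle-like nuclei. Notch4 (log2 ratio -4.50), Notch1 (-1.78) and Heyl (-1.02) were lower. Heyl was close to the 2-fold limit, and without Tg female 1 or without Tg female 2 the count of members apart was 4 in place of 5. Notch3 and Jag1 were lower in 5 of 5 libraries by less than 2-fold (both -0.54). Library ranges did not overlap for 6 of the 7, against 25.4% of all genes, and the median log2 ratio of the 7 was -0.54, against -0.21 over all genes. Among 33 other pathway genes 0 were higher and 4 lower in smooth muscle-like nuclei. Dtx4 (1.68 ± 2.90 against 34.8 ± 6.71 CPM), Dtx3 (221 ± 43.2 against 880 ± 137 CPM) and Hes1, a repressor that is a classic Notch target (51.7 ± 27.0 against 118 ± 23.0 CPM), were the lowest. Adam17 (log2 ratio 0.96), Psenen (0.92) and Aph1a (0.22) were the highest and did not meet the rule.

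**Figure D2:**
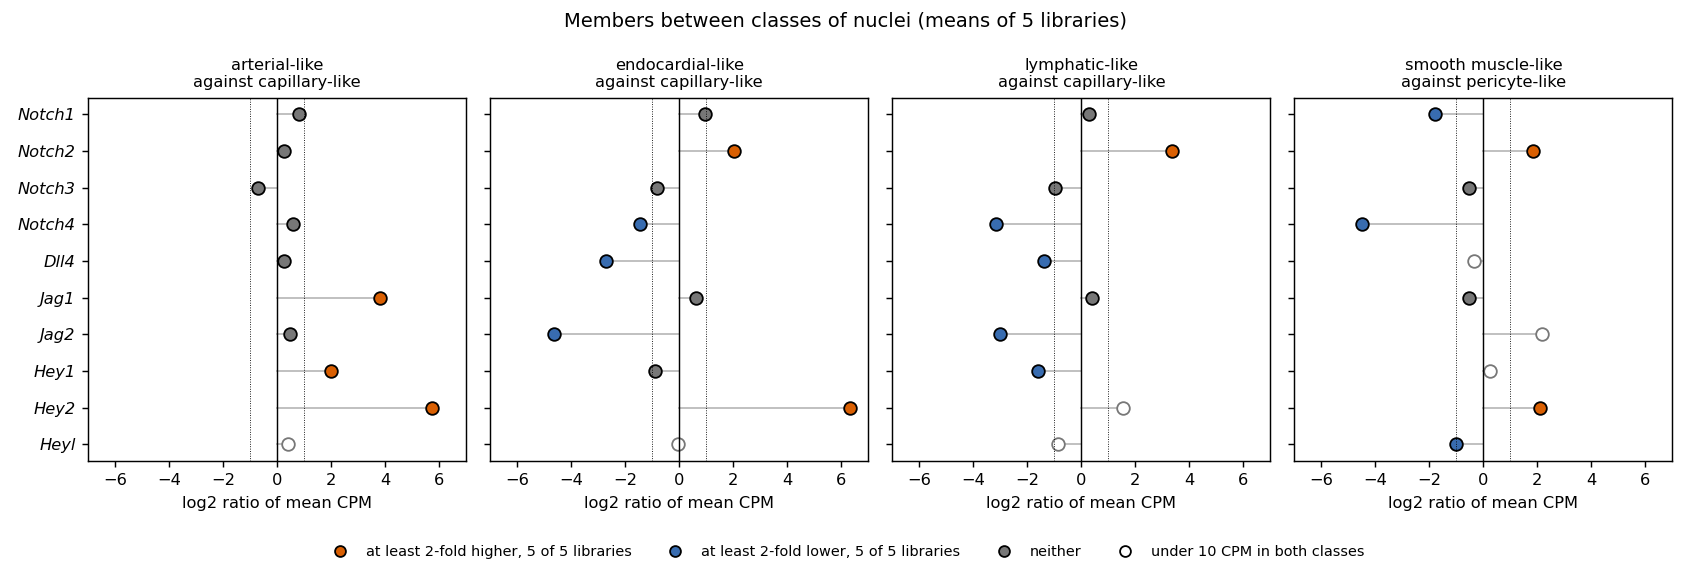
Log2 ratio of the mean CPM (5 libraries) of each member between 2 classes, with dotted lines at 2-fold. Orange points were higher and blue points lower by at least 2-fold in 5 of 5 libraries, grey points met neither rule and open points were under 10 CPM in both classes. Jag1, Hey1 and Hey2 are orange in the arterial-like comparison, and Notch4, Dll4 and Jag2 are blue in both comparisons of endocardial-like and lymphatic-like nuclei.

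The endothelial nuclei were then clustered again, still without the 10 genes. The subclusters compared below were picked after their values had been seen. Subclusters 4 (654 nuclei, led by Tmem100 and Fbln5), 7 (371 nuclei, led by Esr1 and Cytl1) and 5 (592 nuclei, led by Alpl, Tox3 and Tgfb2) had the arterial marker Gja5 at 456 ± 21.4, 493 ± 44.8 and 161 ± 33.2 CPM, against means of at most 8.29 CPM in subclusters 0 to 3. The arterial markers Sema3g and Gja4 were also highest in these subclusters, but other markers were mixed. The venous marker Vwf was at 112 ± 34.8, 472 ± 238 and 43.0 ± 24.5 CPM in subclusters 4, 7 and 5, against 314 ± 54.1 CPM in subcluster 0. The capillary marker Rgcc was at 74.9 ± 38.8, 17.1 ± 11.4 and 419 ± 274 CPM, against means of 219 to 726 CPM in subclusters 0 to 3. Hey1 was at 84.9, 87.4, 109.5, 103.0 and 90.8 CPM in subcluster 4 and at 15.2, 21.4, 18.9, 21.6 and 0 CPM in subcluster 7. Hey2 was at 7.4, 13.5, 12.2, 3.4 and 0 CPM in subcluster 4 and at 50.6, 64.1, 94.3, 73.4 and 124.9 CPM in subcluster 7. The 2 Hey genes thus had opposite orders in these 2 subclusters, with no overlap of libraries for either. These levels rest on few molecules, 18 to 35 Hey1 UMIs per library in subcluster 4 and 10 to 17 Hey2 UMIs per library in subcluster 7. Hey2 is itself among the 10 leading genes of subcluster 7 and Hey1 among those of subcluster 5, ranked in these same nuclei. Cytl1 is also in the list of endocardial markers.

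By the rule above, 2 of 8 members were higher in subcluster 7 than in 4 (Hey2 and Notch2) and 1 was lower (Hey1), against 4.52% and 3.76% of all genes. Library ranges did not overlap for these members and Jag2, against 6.61% of all genes. Jag2 was lower in subcluster 7 by less than 2-fold (143 ± 18.0 against 225 ± 35.5 CPM). Notch1, Dll4 and Notch4 were lower there in 5 of 5 libraries, with overlap (log2 ratios -0.33, -0.47 and -0.25). Jag1 was at 620 ± 101 and 635 ± 63.0 CPM, with overlapping libraries. Without 1 library the count of members apart was 3 to 4. Subcluster 5 had Hey1 at 107 ± 22.7 CPM and Hey2 at 2.37 ± 5.29 CPM, which overlapped with subcluster 4. Its Jag1 was lower, at 201.6, 134.1, 293.1, 175.9 and 287.9 CPM, the 1 member of 7 apart between these subclusters (3.12% of all genes were higher and 3.59% lower, and 5.47% did not overlap).

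Dll4 followed another order. It was at 143.5, 183.1, 103.8, 99.1 and 93.1 CPM in subcluster 2 (893 nuclei, led by Adam23 and Btnl9), where the capillary marker Car4 was at 224 ± 44.2 CPM and Gja5 at 8.29 ± 10.0 CPM. Sema3g, another arterial marker, was at 59.1 ± 22.4 CPM there. Its means were 5.86 to 11.1 CPM in subclusters 0, 1 and 3, and 345 to 888 CPM in subclusters 4, 5 and 7. In the 3 subclusters with Gja5, Dll4 had means of 90.3 to 125 CPM. In subcluster 0 (1519 nuclei, led by Col13a1, with Nr2f2 at 226 ± 33.0 CPM) it was at 29.5, 24.4, 14.2, 13.4 and 8.1 CPM. Between subclusters 2 and 0, Dll4 (log2 ratio 2.80) and Hey1 (40.8 ± 7.30 against 4.48 ± 1.30 CPM) were higher and Notch2 was lower (-1.07), 3 of 7 members apart, against 3.29% and 5.96% of all genes (10.5% did not overlap). Subcluster 2 also had more Hey1 than subcluster 1 (1374 nuclei, led by Ptprn2, Car4 at 305 ± 68.0 CPM), 40.8 ± 7.30 against 10.0 ± 5.75 CPM. It was the 1 member of 8 apart there, where 1.4% of all genes were higher and 1.96% lower. Notch1 and Dll4 were also higher without overlap, by less than 2-fold (log2 ratios 0.63 and 0.79), where 3.26% of all genes did not overlap.

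**Figure D3:**
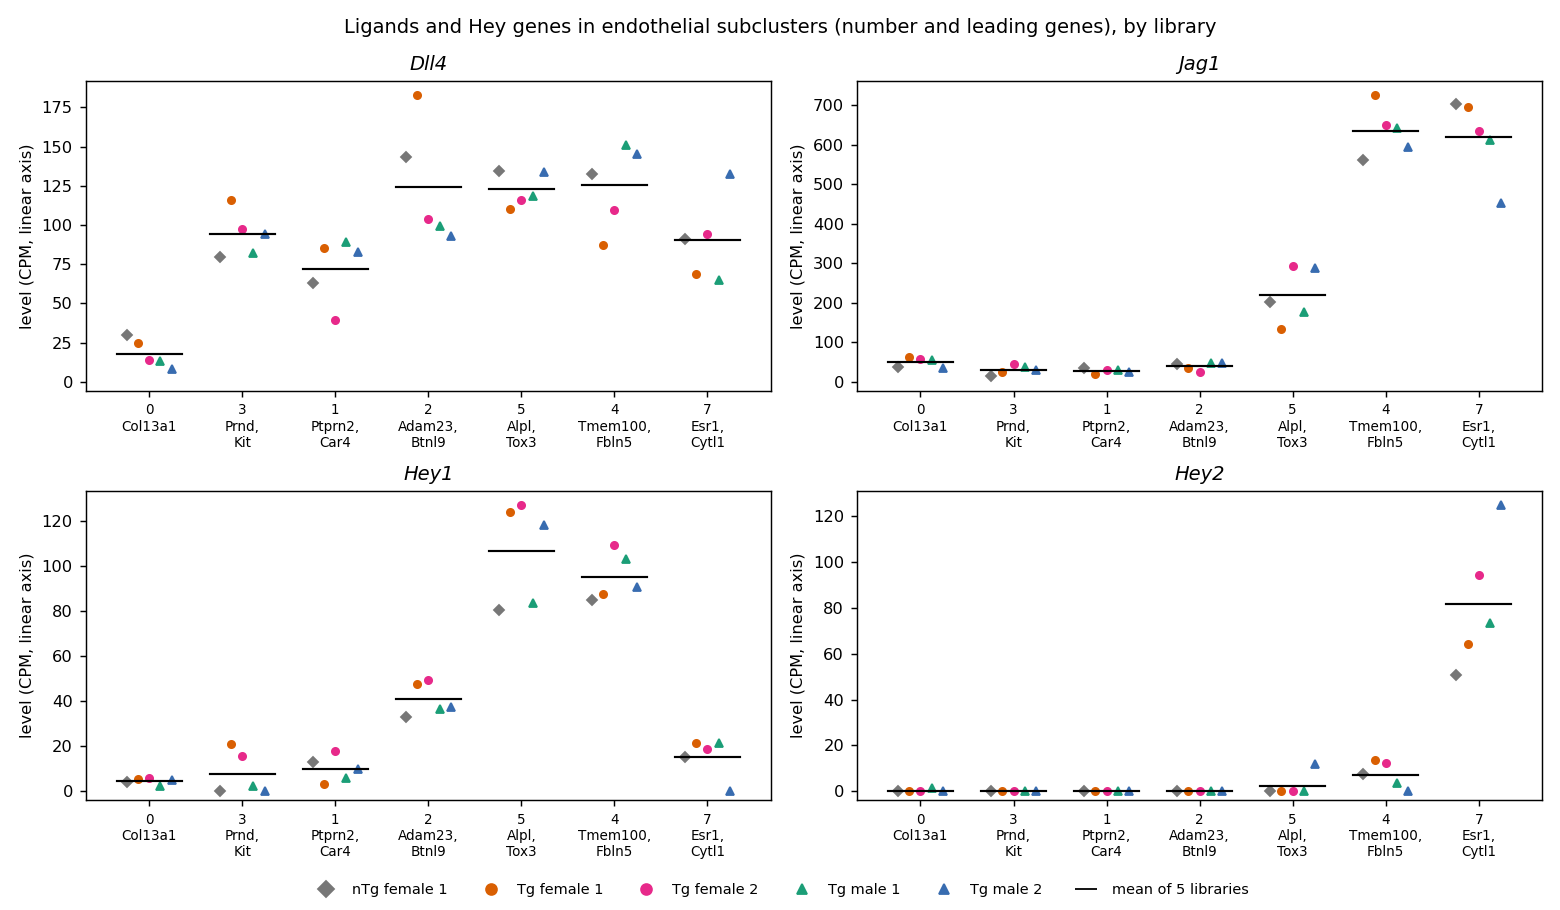
Levels (CPM, linear axis from 0) of Dll4, Jag1, Hey1 and Hey2 in 7 endothelial subclusters, labelled by number and leading genes. Each point is 1 of 5 libraries and each short line their mean. Hey1 is high in subclusters 5 and 4 and low in 7, Hey2 is high in 7 alone among these, Jag1 is high in 4 and 7, and Dll4 is low in 0.

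Fibroblast-like nuclei held 5 clusters. Notch3 was at 66.6, 95.6, 77.4, 51.3 and 48.2 CPM in cluster 3 (3028 nuclei, led by Kcnip1 and Tll2) and at 8.7, 15.3, 13.1, 10.1 and 10.6 CPM in cluster 1 (3397 nuclei, led by Gfpt2 and Cd248). Heyl was at 76.0, 112.0, 106.0, 115.3 and 102.2 CPM against 40.9, 38.9, 36.1, 47.4 and 52.4 CPM. For both genes the 2 clusters did not overlap. Cluster 3 had the highest and cluster 1 the lowest mean of the 5 clusters for both genes. The pair was picked after these values had been seen, so the shares of all genes lend it no support. Notch3 and Heyl were the 2 of 6 members apart (log2 ratios 2.55 and 1.25), where 1.86% of all genes were higher and 3% lower and 8.78% did not overlap. Notch2 went the other way in 5 of 5 libraries by less than 2-fold (95.1 ± 11.3 against 136 ± 12.7 CPM), and Jag1 overlapped. In cluster 6 (2452 nuclei, 199 to 1289 per library, the most in Tg female 2) Notch3 was at 26.1 to 67.0 CPM. Its nuclei were shallow. In Tg female 2 its 1289 nuclei held 2372798 UMIs, against 1606889 UMIs in 616 nuclei of cluster 1.

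**Figure D4:**
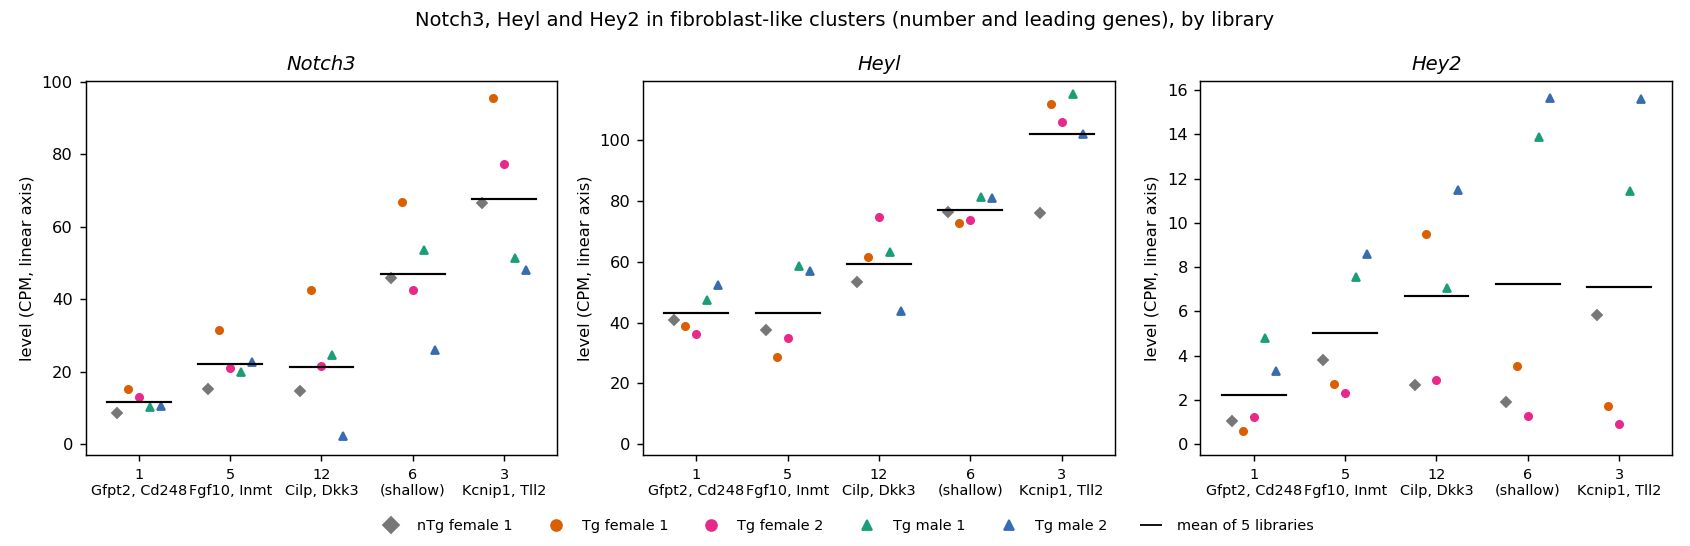
Levels (CPM, linear axis from 0) of Notch3, Heyl and Hey2 in 5 fibroblast-like clusters, labelled by number and leading genes (cluster 6 by number and as shallow). Each point is 1 of 5 libraries and each short line their mean. Notch3 and Heyl are higher in cluster 3 than in cluster 1 in every library. The triangles of Hey2 (Tg male) lie above its circles (Tg female) in clusters 1, 5, 6 and 3.

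Female and male libraries of the Tg label were compared within each class by edgeR's quasi-likelihood test with Benjamini-Hochberg adjustment over all genes of the class. Of 100 pairs of a member and a class, 63 had counts enough to be tested. None had an adjusted p under 0.05 (0 of 63, where 0.209% of all 102446 tests did), 6 of 63 had an unadjusted p under 0.05 (7.86% of all tests), and DESeq2 called 1. Female and male libraries did not overlap for 27 of the 63, 12 higher and 15 lower in females, a share of 42.9% against 37.7% of all tests. Of the 46 other pathway genes, 42 were tested in at least 1 class, 319 tests in all, and edgeR called 0 (29 at an unadjusted p under 0.05).

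In endothelium the members followed no single direction between the sexes. Arterial-like endothelium had 0 members higher and 3 lower in females without overlap, of 8 tested (36.8% of all genes did not overlap, and 0.22% had an adjusted p under 0.05). In capillary-like endothelium 2 of 8 were higher and 3 lower (40.4% and 0.279%), and in Lhx6-high endothelium 2 of 6 were higher and 1 lower (37% and 0.145%). Endocardial-like nuclei had 3 of 6 higher and 1 lower (36.9% and 0.254%), and lymphatic-like nuclei 1 of 4 higher and 0 lower (35.4% and 0.219%). In the vessel wall 1 of 7 was higher and 1 lower in pericyte-like nuclei (35.2% and 0.107%), and 0 of 5 higher and 2 lower in smooth muscle-like nuclei (33.2% and 0.263%). Fibroblast-like nuclei had 2 of 8 higher and 2 lower (41.9% and 0.397%), cardiomyocyte-like nuclei 1 of 7 higher and 1 lower (36.5% and 0.0263%), and macrophage-like nuclei 0 of 4 higher and 1 lower (38.7% and 0.191%).

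The lowest adjusted p belonged to Hey2 in fibroblast-like nuclei, which was singled out after its values were seen. It was at 2.57 and 1.45 CPM in Tg female 1 and 2 (23 and 9 UMIs) and at 8.46 and 9.72 CPM in Tg male 1 and 2 (64 and 59 UMIs). Both female libraries thus lay below both male ones. The log2 difference, female minus male, was -2.21 ± 0.37 (SE, edgeR, adjusted p = 0.0603), short of the threshold. DESeq2 gave -2.24 with an adjusted p of 0.00381. Over the edgeR alternatives the adjusted p ran from 3.77e-07 without a filter on low counts to 0.151 with 5 libraries and no genotype term. With 1 female library left, the log2 difference was -2.75 without Tg female 1 and -1.89 without Tg female 2. nTg female 1, which took no part in the test, had 3.22 CPM (21 UMIs). Fibroblast-like clusters 1, 3, 5 and 6 are parts of the same nuclei and libraries, and so no independent repeat. In these clusters both Tg female libraries lay below both Tg male ones, and in cluster 12 they overlapped. Counts were few, with 20, 66, 47 and 20 Hey2 UMIs over all 5 libraries in clusters 1, 3, 5 and 6. In cluster 3 the values were 1.7 and 0.9 CPM in females and 11.4 and 15.6 CPM in males. There 3 UMIs amount to 1.29 and 2.77 CPM in Tg female 1 and 2.

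Markers of other cell types were summed in fibroblast-like nuclei, and their part in the level of Hey2 was not tested. The 8 smooth muscle markers, of the class with the most Hey2, summed to 151 and 139 CPM in the Tg females and 127 and 99.6 CPM in the Tg males, and the 9 cardiomyocyte markers to 1365 and 1786 CPM against 1188 and 1274 CPM. The 9 pericyte markers summed to 249 and 222 CPM against 214 and 199 CPM, the 7 endocardial markers to 83.4 and 86.3 CPM against 84.8 and 75.6 CPM, and the 10 pan-endothelial markers to 108 and 169 CPM against 92.8 and 95.5 CPM. None of these markers was at 0 in any of these libraries. The Tg males were higher without overlap for the 7 Schwann cell markers (946 and 633 CPM in females against 1059 and 1092 CPM in males, 1 marker at 0 in each) and for the fibroblast markers themselves (16913 and 11614 CPM against 17005 and 17744 CPM). In cardiomyocyte-like nuclei Hey2 was at 10.7 and 4.18 CPM in females and 9.35 and 11.6 CPM in males, which overlap.

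In endocardial-like nuclei the values of Hey2 lay the other way, with 32.0 and 72.1 CPM in the Tg females against 24.8 and 21.3 CPM in the Tg males. This log2 difference of 0.97 ± 0.42 had an edgeR adjusted p of 0.608. Tg female 2, which carries most of it, also had fewer endocardial marker UMIs in this class (3396 against 6022 to 6264 CPM in the other Tg libraries for the 7 markers) and more cardiomyocyte marker UMIs (2127 against 1439 to 1716 CPM). The part of these in the level of Hey2 was not tested. Without Tg female 2 the difference was 0.41, and without Tg female 1 it was 1.54, each with 1 female library left. nTg female 1 had 53.5 CPM. In smooth muscle-like nuclei, where Hey2 was highest, female and male libraries overlapped (139.6 and 166.5 against 140.9 and 152.3 CPM).

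Jag1 in macrophage-like nuclei was at 13.5 and 10.2 CPM in Tg females and 33.3 and 21.2 CPM in Tg males, a fitted log2 difference of -1.20 ± 0.40 (edgeR, adjusted p = 0.389). A further 2 pairs, too low to be tested, also met the rule for naming. Notch3 in endocardial-like nuclei was at 12.5 and 9.61 CPM in females and 4.95 and 0 CPM in males. Hey1 in smooth muscle-like nuclei was at 6.73 and 20.2 CPM in females and 3.35 and 3.81 CPM in males, where 3 UMIs amount to 5.05 to 15.1 CPM in a library.

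**Figure D5:**
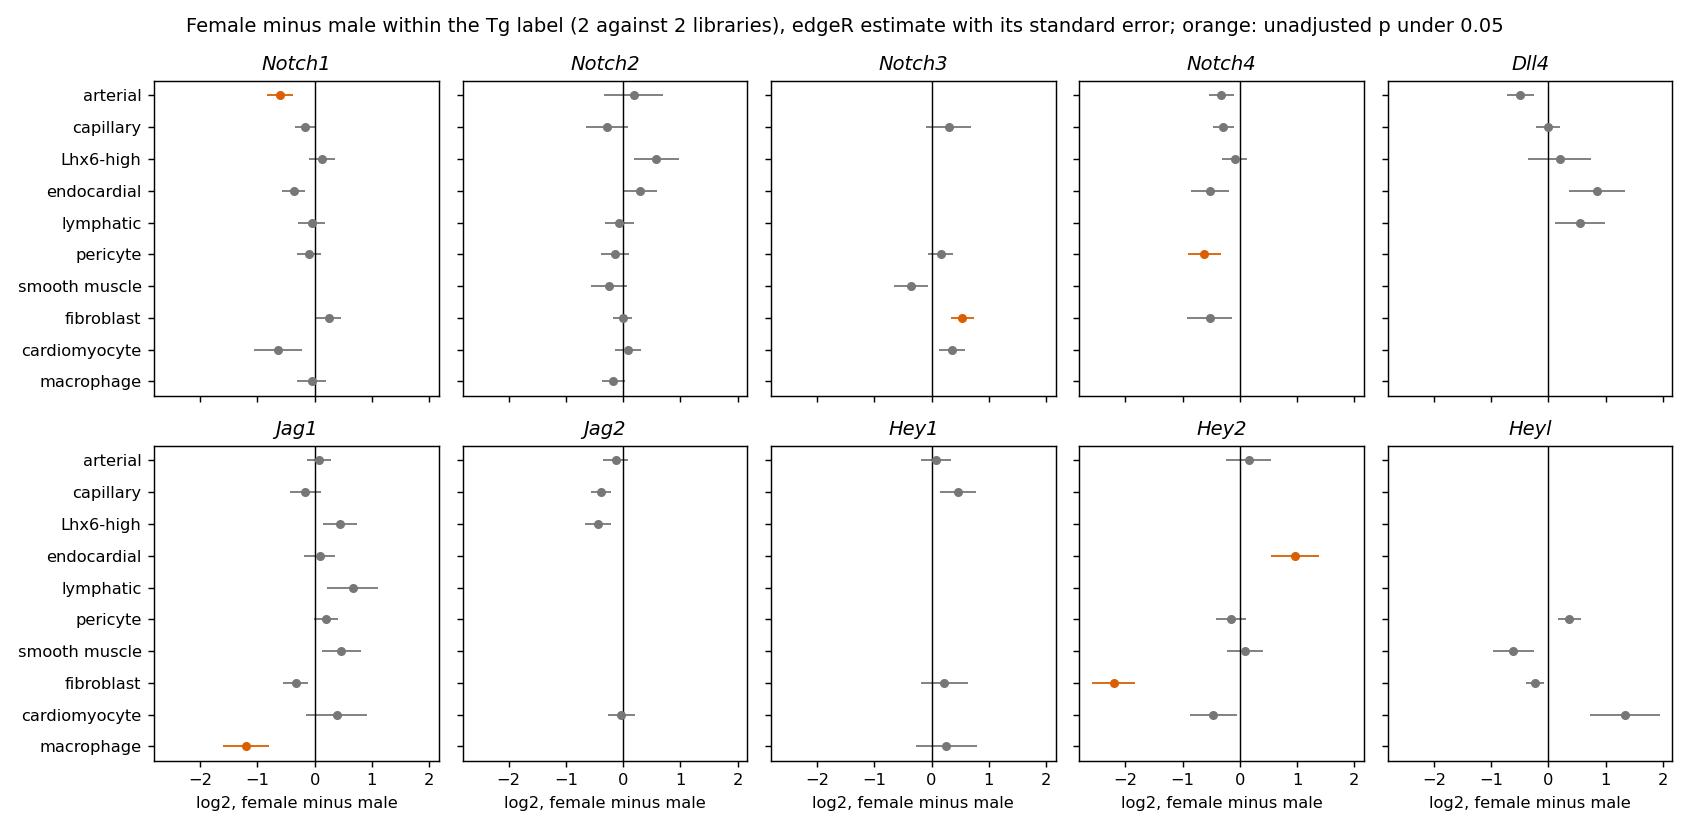
Female minus male difference on the log2 scale within the Tg label (2 against 2 libraries), as edgeR's estimate with its standard error, for the 63 tested pairs of a member and a class. Orange marks an unadjusted p under 0.05. Hey2 in fibroblast-like nuclei, at -2.21, is the largest difference in either direction.

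The single nTg library lay outside the range of the 4 Tg libraries for 20 of the 63 tested pairs, 9 above and 11 below. That is 31.7%, and the share over all genes was 32.5% to 37.3% in the 10 classes. With 1 nTg library no test was made, and its label is among those that Ccna2 went against.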

How the data were processed

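The deposited matrices hold UMI counts per gene and barcode, not normalized by the authors, from Cell Ranger 7.0.0 per the file headers, and mm10 is named in the submitters' processing notes. The counting of introns and the use of strand are not given in the sources used here. Of 8 matrices, 3 under nTg labels (female 2, male 1 and male 2) held the values of the Tg library of the same sex and number. Their columns (8062, 8992 and 8931) did not match their own barcode lists (7583, 8896 and 11241) but matched those of the Tg libraries, under whose labels the values were used. Barcodes with at least 200 genes and under 5% mitochondrial UMIs were kept. Scrublet scores (expected rate 6%) gave 0 calls by their automatic limit in Tg female 2, so the top 8% were removed in every library, a choice made after seeing this. Nuclei were clustered in scanpy 1.11.5 on 2000 variable genes, 30 principal components and 15 neighbours (Leiden, resolution 1). UMIs were summed per class and library and given as CPM of that sum. The sex contrast used edgeR 4.0.16 (filterByExpr, TMM) and was tested on simulated counts with 200 changed genes: in fibroblast-like nuclei (15096 genes) 95.0% of 4-fold and 46.9% of 2-fold changes were recovered, in capillary-like endothelium (11183 genes) 97.2% and 36.9%. DESeq2 1.42.0 was an alternative. For pairs of classes in which a member's libraries lay opposite ways, the difference was estimated in 1 edgeR model with library as a term.

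Members, marker and pathway lists were chosen with earlier results of these data known. All 10 members are named. Some genes that the rules below would name are not reported here. The 3 genes most like a member were named. In class comparisons other pathway genes were named if among the 3 highest or 3 lowest log2 ratios. In the sex contrast a member was named with an adjusted p under 0.05, or with non-overlapping groups, a log2 ratio of mean CPM of at least 1 and at least 10 CPM in the higher group. Coordinates are those of GRCm38 (GENCODE), in which all 10 matched by gene ID.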

Additional observations from a re-analysis of the deposited data

Results flagged for a closer look

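For Hey2, the Tg female libraries lay below the Tg male ones in fibroblast-like nuclei (2.57 and 1.45 against 8.46 and 9.72 CPM) and above them in endocardial-like nuclei (32.0 and 72.1 against 24.8 and 21.3 CPM). By edgeR neither difference passed the threshold within its class (adjusted p = 0.0603 and 0.608). It is 1 of 15 pairs of classes with such opposite orders for a member. In an edgeR model with library as a term, the female minus male difference in fibroblast-like nuclei less that in endocardial-like nuclei was -3.09 ± 0.55 on the log2 scale (SE). The pairs were picked for their opposite orders in these same libraries, so no p-value is given for it. Without each Tg library in turn the value ran from -4.22 to -2.31. The endocardial side rests mostly on Tg female 2, the library that stood apart, and without it the value was -2.31.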

How the results depend on the processing

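In class comparisons, a 1.5-fold limit in place of 2-fold gave 6 in place of 3 members apart (arterial-like against capillary-like) and 8 in place of 5 (endocardial-like against capillary-like). At Leiden resolution 0.5, where the Lhx6-high cluster joined the capillary-like class, 3 in place of 5 were apart in the lymphatic-like comparison. Without 1 library the counts were 3 for arterial-like, 5 to 7 for endocardial-like, 5 to 6 for lymphatic-like and 4 to 5 for smooth muscle-like comparisons. The share of all genes apart under these changed settings was not computed. Whether members changed more than other genes can therefore not be said.

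The sex contrast called 214 of all tests and 0 members. DESeq2 called 596 and 1, no filter 1976 and 1, and 5 libraries without a genotype term 79 and 0. With the replicate block the counts were 1031 and 1, but the numbers do not pair the samples by the labels, and deviations of same-numbered libraries correlated at -0.016 to 0.092. Without 1 library 625 to 4200 tests and 1 to 4 members were called, where the lone library of a sex is assumed to vary like the others. These calls were Hey2 in fibroblast-like nuclei in all settings with 1 or more members called, and, without Tg female 1, Notch1 in arterial-like, Hey2 in endocardial-like and Jag1 in fibroblast-like nuclei, and, without Tg female 2, Notch3 in smooth muscle-like nuclei. The cause was not tested. Of 296 log2 ratios of single members between classes recomputed under these settings, 241 moved by less than the spread between libraries and 55 by more or with a spread that could not be computed because a library was at 0. The sign changed for 3, none of which met the 2-fold rule: Notch2 in arterial-like endothelium (0.25, and -0.23 at resolution 0.5), Hey1 in endocardial-like nuclei (-0.90, and 0.13 with pathway genes kept for clustering) and Notch3 in lymphatic-like nuclei (-0.96, and 0.70 with doublets kept).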
